A study of Homo sapiens with 6 samples.

Results

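The subject of this report is the set of nuclear genes that encode subunits of the oxidative phosphorylation system, read in MDA-MB-231 cells silenced for NEK2. MDA-MB-231 is a human triple-negative breast cancer (TNBC) cell line with a mesenchymal phenotype, and NEK2 is a mitotic kinase. Subunits were chosen by gene symbol alone, as NDUFA, NDUFB, NDUFC, NDUFS and NDUFV genes, SDHA to SDHD, the UQCR genes, COX4 to COX8 genes and ATP5A to ATP5L genes, with pseudogenes left out. The rule found 81 of the 74852 rows of the gene table, and 75 of them passed the filter for a fold change, which asked that the 6 libraries average 10 normalized counts or more. No measured value entered the rule apart from this filter, although the subunits were chosen with earlier results of these data known.

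In the inner mitochondrial membrane, complex I takes electrons from NADH and complex II takes them from succinate, and both pass them to ubiquinone. Complex III hands them on to cytochrome c, and complex IV uses them to reduce oxygen. The proton gradient that complexes I, III and IV build drives complex V, the ATP synthase. Most subunits are made from nuclear genes and imported, whereas a core of complexes I, III, IV and V is encoded in mitochondrial DNA. Some nuclear subunits have isoforms restricted to tissues such as heart, lung or testis.

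The cells carried no stated genetic change. The si-CTRL group (3 libraries) received control siRNAs and the si-NEK2 group (3 libraries) received a pool of siRNAs against NEK2. According to the sample records the cells went through 2 rounds of transfection and were collected 24 h after the last of them, while the methods of the study give another harvest time. PolyA-selected RNA was sequenced, and each value is the number of reads on a gene divided by the size factor of its library, called normalized count here. The reads behind these values came to 52625492 in the smallest library, si-CTRL replicate 1, and to 87454509 in the largest, si-NEK2 replicate 1. The records of the si-CTRL libraries point to other records and those of the si-NEK2 libraries do not, so a difference in preparation and the effect of the siRNAs cannot be told apart. Nothing in the records ties the libraries to separate cultures, and p-values measure the spread between these libraries. In bulk RNA, a change in the number of cells of a kind and a change in RNA per cell cannot be told apart.

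NEK2 itself had 3702, 3323 and 3290.2 normalized counts in the si-CTRL libraries and 284, 362 and 388 in the si-NEK2 libraries. All si-NEK2 values were far below all si-CTRL values. The log2 fold change of si-NEK2 against si-CTRL was -3.32 ± 0.12 (SE, limma, Benjamini-Hochberg adjusted p = 1.86e-06). The mesenchymal and luminal markers VIM, CD44 and KRT18 were present in each library, with at least 23195 normalized counts each, while ESR1, PGR and CDH1 had at most 15.2. CD44 fell to 58.2% of its si-CTRL mean (log2 fold change -0.76, limma adjusted p = 0.00332), and VIM and KRT18 were not called (-0.18 and -0.02, limma adjusted p = 0.101 and 0.853). The row of ERBB2, which also carries MIR4728, had between 2455 and 4085 normalized counts, so that this defining negative marker of the subtype was not near 0 at the level of RNA. This row rose to 142% of its si-CTRL mean (log2 fold change 0.53, limma adjusted p = 0.00744). The part of these marker shifts in the results on subunits was not tested.

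Subunit transcripts were mostly higher after NEK2 silencing, by modest amounts. At an adjusted p of at most 0.05, 43 of the 75 tested subunits (57.3%) were higher in si-NEK2 and 4 (5.33%) were lower, and 28 were not called. Among all 18717 tested genes, 21.8% were higher and 21.3% lower (43.1% in either direction). The 43 subunits that rose did so by between 14.6% and 59.7% of their si-CTRL mean, with a median of 36.1%. The 4 that fell were SDHA, NDUFB2, UQCRB and COX7A2L. The median log2 fold change was 0.32 over the subunits and 0.01 over all tested genes. In 51 subunits all si-NEK2 libraries lay above all si-CTRL libraries and in 3 all lay below, against 28.2% and 26.9% of all tested genes (55% in either direction). The study itself set its thresholds at 0.05 for p and at 1.5 for the fold change, and past both of them 6 subunits were higher and 2 lower, against 8.23% and 14.3% of all tested genes (22.5% in either direction). The share of subunits past the larger fold was thus close to the background for increases, at 6 of 75, and most of the called changes were smaller than 1.5-fold.

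**Figure D1:**
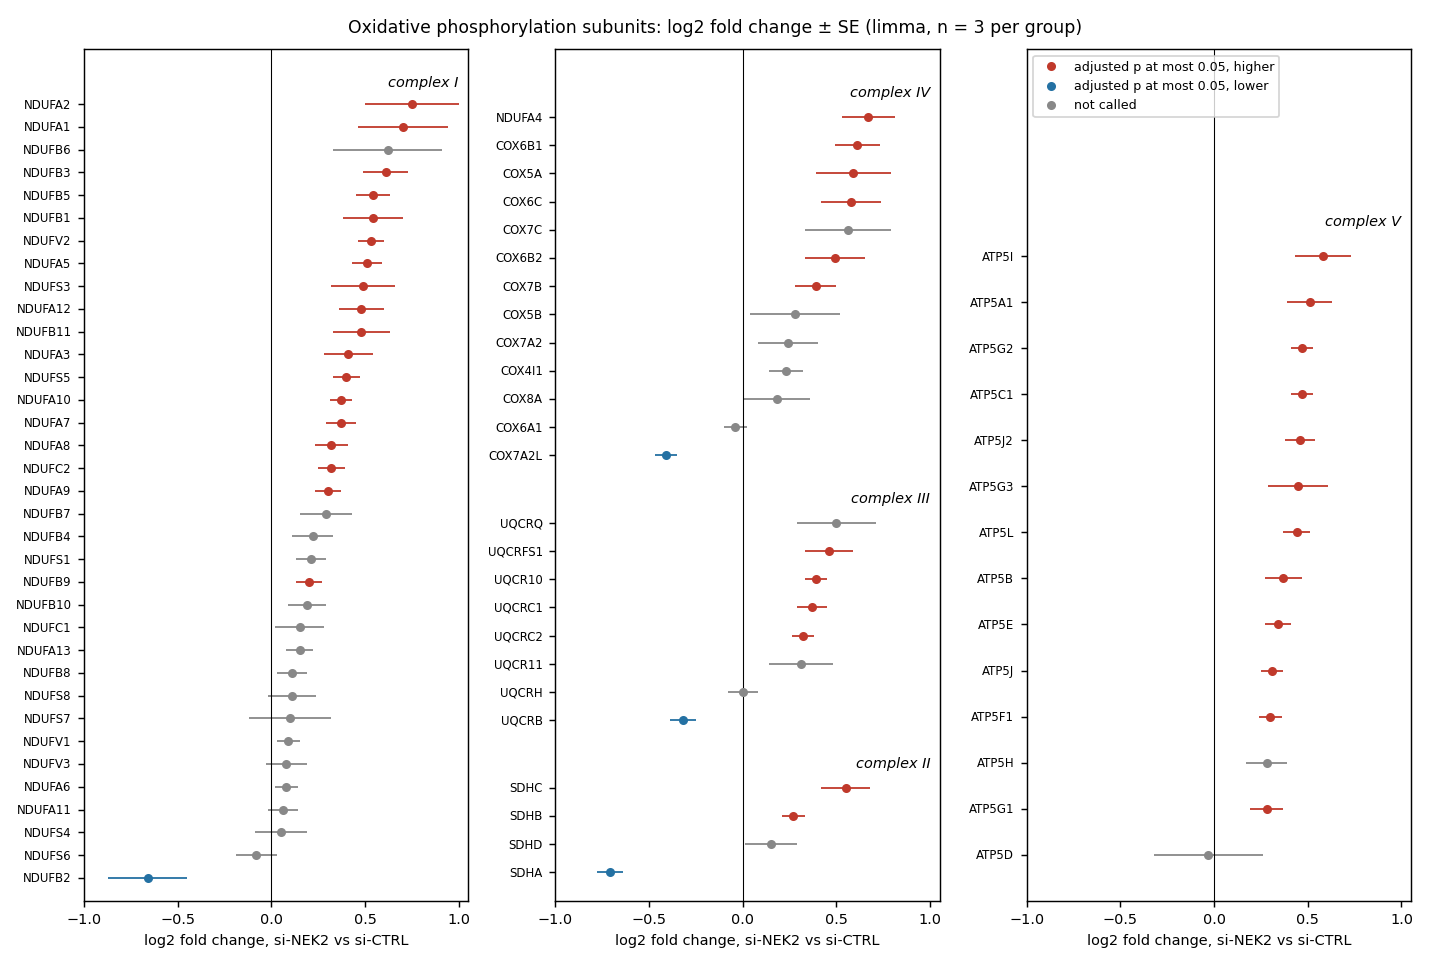
Log2 fold change of si-NEK2 against si-CTRL (x axis) for the tested subunits reported here (y axis), by complex, with points for the limma estimate and bars for its SE (n = 3 libraries per group). Points of subunits called higher lie to the right of 0, and SDHA, NDUFB2, UQCRB and COX7A2L lie to the left.

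The libraries did not share in this equally. Summed over the 75 subunits, the normalized counts were 508407, 611555 and 618852 in si-CTRL and 724265, 715084 and 688834 in si-NEK2. All si-NEK2 sums were above all si-CTRL sums, and si-CTRL replicate 1 was well below the other si-CTRL libraries. The si-NEK2 mean was 122% of the si-CTRL mean, and 115% of the mean of si-CTRL replicates 2 and 3. The replicate si-CTRL 1 was the lowest of the 6 libraries in 59 of the 75 subunits (78.7%), against 26% of all tested genes. Its level was between 42.8% and 137% of the mean of the other si-CTRL libraries, with a median of 82.3%. The median SD of log2 values of the subunits was 0.18 among the si-CTRL libraries and 0.06 among the si-NEK2 libraries. Over all tested genes it was 0.17 and 0.10, so the spread among the si-CTRL libraries was near the background. Between si-CTRL replicates 2 and 3 alone, the median SD of the subunits was 0.04.

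**Figure D2:**
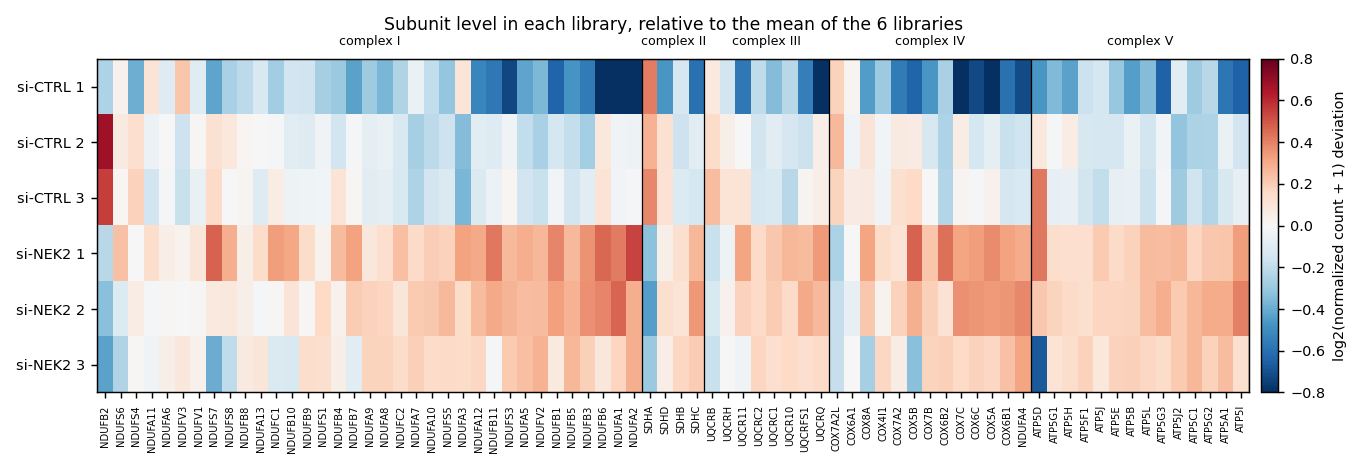
Level of each tested subunit reported here (columns, by complex and fold change) in each of the 6 libraries (rows), as the deviation of log2(normalized count + 1) from the mean of the 6 libraries, with colours saturated at 0.8 in either direction. The row of si-CTRL replicate 1 is blue in most columns, as it was the lowest library in 59 of the 75 tested subunits.

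Without si-CTRL replicate 1, all 43 subunits that rose and all 4 that fell were called again in the same direction, and the count was 48 higher and 5 lower. The background was then 26.7% higher and 23.2% lower. The fold changes were smaller without it, with a median log2 fold change of 0.24, and only 2 subunits passed the thresholds of the study. The count at adjusted p fell most when a si-NEK2 library was left out. It was 27 (24 higher) without si-NEK2 replicate 2 and 30 (27 higher) without si-NEK2 replicate 1. The median log2 fold change of the subunits was 0.32 and 0.33 in these fits. The share of all tested genes called in them is not given here, so the fall is no result about the subunits. Over 19 alternative settings, each of the 47 called subunits kept its direction wherever it had a value, which excepts 6 in rows with several symbols under the setting that leaves such rows out. Of the 43 increases 16 passed in each of the 19. These 16, listed after their values were seen, were NDUFA5, NDUFA10, NDUFA12, NDUFB3, NDUFB5, NDUFV2, SDHC, UQCRC1, UQCRC2, UQCR10, COX6B1, NDUFA4, ATP5A1, ATP5C1, ATP5G2 and ATP5L. Of the decreases, those of SDHA, UQCRB and COX7A2L passed in each.

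Most of these subunits are small proteins with short messages, and transcript length moved with the level in si-CTRL replicate 1. The median annotated transcript length was 878 bases over the subunits and 2940 bases over tested genes with a length. In si-CTRL replicate 1, the median log2 deviation from the mean of the 6 libraries was -0.39 for the 43 subunits with transcripts of up to 1000 bases and -0.28 for the 32 longer ones. It was -0.19 for 714 other genes of up to 1000 bases and 0.04 for 5988 genes of 3000 bases or more. In the si-NEK2 libraries the deviations of the short subunits were 0.27, 0.20 and 0.14. After a correction of each library for transcript length, added after the data were seen, 33 of the 43 increases were still called and 6 subunits were lower, against 26.2% higher and 25.4% lower among all genes so corrected. The median log2 fold change of the subunits was then 0.18. Among those no longer called were NDUFA7, NDUFB9, COX7B, ATP5G1 and ATP5J2, the last in a row shared with ATP5J2-PTCD1 and PTCD1 and therefore uncertain. Of the short subunits 53.5% were higher and of the long ones 62.5%, while the other short genes were higher in 28%. The part of transcript length beyond this correction was not tested.

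**Figure D3:**
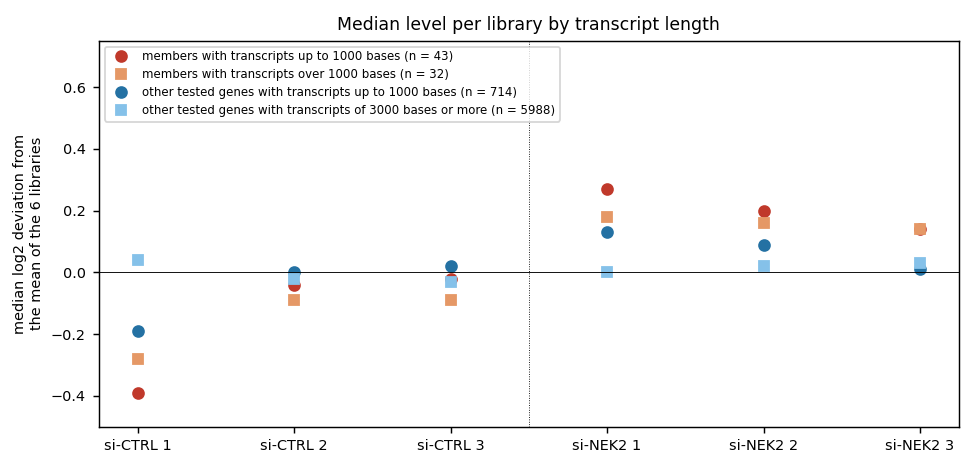
Median log2 deviation from the mean of the 6 libraries (y axis) in each library (x axis) for subunits (red and orange) and other tested genes (dark and light blue) with short and long transcripts. In si-CTRL replicate 1 short genes sit below 0, the subunits at -0.39 and the other genes at -0.19, while genes of 3000 bases or more sit at 0.04.

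The promoters of subunit genes are known for sites of a few shared activators, among them NRF1, ETS-family factors such as GABPA, and YY1. RefSeq promoter windows (GRCh38.p14) of 300 bases, from 250 before to 50 after each start site, were matched to 66 of the 81 subunits and searched on both strands for GCGCATGC (NRF1), CCGGAAG (ETS) and AAGATGGC (YY1). None of these motifs contains another, and the NRF1 letters overlap their own complement where the site is symmetric. The NRF1 letters were in the windows of 14 of the 66 subunits (21.2%), against 3.68% of all 27305 genes with a window. The ETS letters were in 20 (30.3%), against 12.2%, and the YY1 letters in 11 (16.7%), against 3.52%. At least 1 of the motifs was in 35 of the 66 (53%), against 17.6% of all genes with a window. Such windows belonged to 17 of the 33 matched subunits that rose, to 18 of the 27 matched ones that were tested and not called, and to none of the 3 matched ones that fell. The ETS letters, with or without another motif, were in 8 of these 33 (24.2%) and in 12 of these 27 (44.4%). The NRF1 letters were in 7 of these 33 (21.2%) and in 7 of these 27 (25.9%). The YY1 letters went the other way from ETS, with 7 of these 33 (21.2%) and 4 of these 27 (14.8%). No difference between these shares was tested. The following sites of subunits that rose show the letters found, in capitals, a pair for each motif, 5′ to 3′ on the strand of the gene.
ATP5C1, NRF1, chr10:7788144-7788173, plus strand: ggggagcttcgGCGCATGCgcgctgaggcc
ATP5I, NRF1, chr4:674336-674365, minus strand: cgccgctgacgGCGCATGCgtgcgcccagc
NDUFA1, ETS, chrX:119871773-119871802, plus strand: attccgtcgcttCTTCCGGagccgtacgtg
COX6B1, ETS, chr19:35648299-35648328, plus strand: cacctctctcagCTTCCGGctggtagtagt
SDHB, YY1, chr1:17054004-17054033, minus strand: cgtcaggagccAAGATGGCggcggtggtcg
UQCRC1, YY1, chr3:48609605-48609634, minus strand: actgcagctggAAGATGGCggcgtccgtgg
The ETS letters of NDUFA1 and COX6B1 read CTTCCGG because the motif lies on the other strand. The YY1 letters of SDHB and UQCRC1 begin 10 and 23 bases after the start site, within the transcribed part, and those of the other 4 sites begin before it. A match of letters is a description of the window and was not tested as a site. The comparison covered all genes with a window, including genes not tested for a fold change here.

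Of the factors named for these motifs, which are described after their values were seen, GABPA rose. It had 2602, 2495 and 2594 normalized counts in si-CTRL and 3729, 3923 and 3819.6 in si-NEK2, groups that did not overlap (log2 fold change 0.58 ± 0.06, SE, limma adjusted p = 1.81e-04). NRF1 had a smaller increase, with a log2 fold change of 0.29 and a limma adjusted p of 0.0389, which reached 0.214 under other settings. Its call was lost in every fit without 1 library, except that without si-CTRL replicate 1 (0.37, limma adjusted p = 0.00376). YY1, in a row shared with MIR6764 and therefore uncertain, was not called (log2 fold change -0.17, limma adjusted p = 0.137). It was called lower without si-CTRL replicate 1, under equal total scaling and under quantile scaling, at -0.23, -0.30 and -0.26 (limma adjusted p = 0.0127, 0.0187 and 0.0387). GABPB1 and GABPB2, from the same list of regulators, were not called (-0.09 and 0.11, limma adjusted p = 0.331 and 0.631). GABPB1 was called lower under equal total scaling (-0.21, limma adjusted p = 0.0282). The GABPA row (21:27106880-27144771, hg19) overlaps that of the subunit ATP5J, which also rose. The part of shared reads was not tested.

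Complex I consists of a matrix arm, which oxidises NADH, and a membrane arm, which pumps protons. Of its 36 tested nuclear subunits 19 (52.8%) rose and 1 (2.78%) fell, against 21.8% and 21.3% of all tested genes. The median log2 fold change of complex I was 0.30. The matrix arm had 8 increases among 16 subunits (50%) and the membrane arm 11 among 20 (55%). Of the 7 core subunits, which carry the cofactors and the catalytic path, 3 (42.9%) rose, with a median of 0.20. Of the 29 accessory subunits 16 (55.2%) rose, with a median of 0.32. Complex I summed to 121% of its si-CTRL mean in si-NEK2.

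The largest increases of complex I were in small accessory subunits. NDUFA2, in the matrix arm, had 1345, 2742 and 2799 normalized counts in si-CTRL and 4104, 3446 and 3444 in si-NEK2. NDUFA1, in the membrane arm and encoded on the X chromosome (X:119005734-119010619, hg19), had 3323, 6533 and 6558 in si-CTRL and 8892, 9184 and 7513 in si-NEK2. In both genes the groups did not overlap, and si-CTRL replicate 1 was well below the other si-CTRL libraries. The log2 fold changes were 0.75 ± 0.25 for NDUFA2 (SE, limma adjusted p = 0.0386) and 0.70 ± 0.24 for NDUFA1 (limma adjusted p = 0.039). Without si-CTRL replicate 1 they were 0.40 and 0.38 and still called, at limma adjusted p-values of 0.00248 and 0.00335. Without si-NEK2 replicate 1, 2 or 3 the calls were lost, at limma adjusted p-values of 0.125, 0.0821 and 0.0683 for NDUFA2 and of 0.11, 0.119 and 0.0517 for NDUFA1.

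NDUFB3, another membrane arm subunit, rose with less spread. Its normalized counts were 3471, 4244 and 4826 in si-CTRL and 6555, 6587 and 5829.7 in si-NEK2, with no overlap. The log2 fold change was 0.61 ± 0.12 (SE, limma adjusted p = 0.00314), and the call passed without any single library. NDUFB6 had an estimate of similar size that was not called (log2 fold change 0.62 ± 0.29, limma adjusted p = 0.118). Its 1619 normalized counts in si-CTRL replicate 1 stood against 3746 and 3812 in the other si-CTRL libraries and 4854, 4633 and 3757 in si-NEK2, where the lowest value lay among those of si-CTRL. The core subunit NDUFV2, named after its values were seen, had 5689, 6103 and 6458 in si-CTRL and 8775, 8716 and 8867 in si-NEK2, all well above (log2 fold change 0.53 ± 0.07, limma adjusted p = 3.47e-04).

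NDUFB2, a membrane arm subunit (7:140396481-140406446, hg19), was the complex I gene that fell. Its normalized counts were 1812, 3431 and 3144 in si-CTRL and 1840.4, 1705 and 1593 in si-NEK2. The groups overlapped, because si-CTRL replicate 1 lay among the si-NEK2 libraries. The log2 fold change was -0.66 ± 0.21 (SE, limma adjusted p = 0.0321). Without si-CTRL replicate 1 it was -0.94 (limma adjusted p = 1.13e-05). Without si-CTRL replicate 2 or 3 it was -0.48 and -0.54, and without si-NEK2 replicate 1, 2 or 3 it was -0.71, -0.65 and -0.60, and none of these 5 fits gave a call (limma adjusted p between 0.0642 and 0.102). The antisense gene NDUFB2-AS1 had between 68.3 and 96.9 normalized counts, far fewer than NDUFB2, in both groups. The remaining low estimates of complex I were those of NDUFS6 and NDUFS4, subunits of the matrix arm, at -0.08 and 0.05 on the log2 scale (limma adjusted p = 0.613 and 0.811), and NDUFS4 changed sign under other scalings.

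Complex II, the succinate dehydrogenase, has 4 subunits, all nuclear, and they went different ways. SDHA, the flavoprotein that oxidises succinate (5:218338-257196, hg19), had 19549.9, 17889 and 19189 normalized counts in si-CTRL and 11714, 10846 and 11964 in si-NEK2. The si-NEK2 values were lower by a margin that far exceeded the spread within either group, and si-CTRL replicate 1 did not stand apart. SDHA fell to 61% of its si-CTRL mean, with a log2 fold change of -0.71 ± 0.07 (SE, limma adjusted p = 8.30e-05). The estimate lay between -0.75 and -0.67 when single libraries were left out, and the call passed each time.

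SDHB, the iron-sulfur subunit that takes the electrons from SDHA, rose. Its normalized counts were 9611, 9417 and 9769 in si-CTRL and 11535, 11394 and 11799 in si-NEK2, with little spread in either group. The log2 fold change was 0.27 ± 0.06 (SE, limma adjusted p = 0.00496). It remained positive under equal total and quantile scaling, at 0.14 in each, where it was not called (limma adjusted p = 0.0731 and 0.0816). After the length correction it was 0.18 and called (limma adjusted p = 0.0481). The ratio of SDHA to SDHB within a library, which no single factor per library can move, was 2.03, 1.9 and 1.96 in si-CTRL and 1.02, 0.952 and 1.01 in si-NEK2. All si-NEK2 ratios were below all si-CTRL ratios, and with 3 libraries against 3 an exact two-sided permutation test can give no p below 0.1.

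Of the membrane anchors that hold haem and bind ubiquinone, SDHC had 9357, 13326 and 12813 normalized counts in si-CTRL and 16965, 17986 and 16272 in si-NEK2. Every si-NEK2 library lay above every si-CTRL library, and SDHC rose by 0.55 ± 0.13 on the log2 scale (SE, limma adjusted p = 0.0076). SDHD had 4388, 6596 and 6586 in si-CTRL and 6278, 6645 and 6292 in si-NEK2. Apart from si-CTRL replicate 1 its values lay close together, and it was not called (log2 fold change 0.15 ± 0.14, limma adjusted p = 0.427). Summed over the 4 genes, complex II was at 101% of its si-CTRL mean.

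SDHA has near-identical pseudogene copies, and reads can be split between them. SDHAP1 had 609.9, 508 and 595 normalized counts in si-CTRL and 759, 722 and 871 in si-NEK2, and it rose by 0.46 on the log2 scale (limma adjusted p = 0.00971). SDHAP2 and SDHAP3 were not called (limma adjusted p = 0.0787 and 0.0865). The means were 571 in si-CTRL and 784 in si-NEK2 for SDHAP1, against 18876 and 11508 for SDHA. The part of reads shared with the copies in the SDHA values was not tested.

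**Figure D4:**
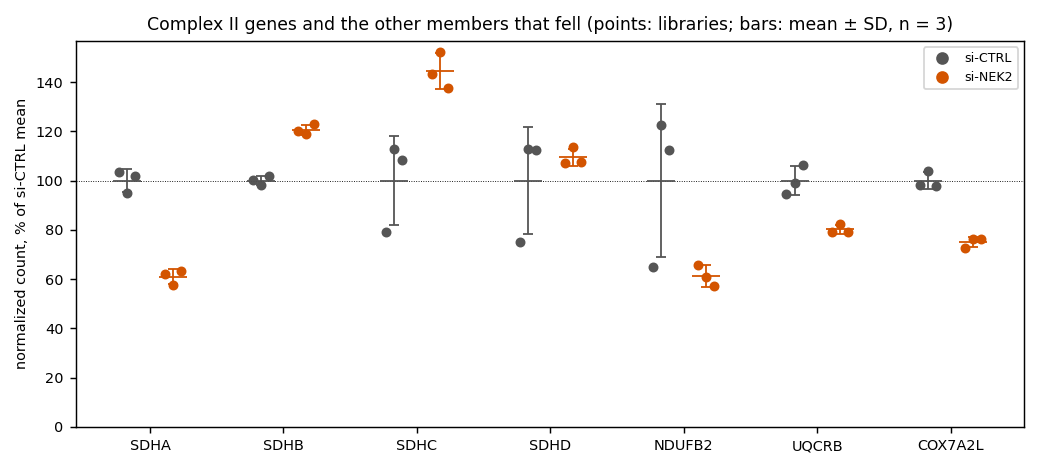
Normalized count as a percentage of the si-CTRL mean (y axis) for the 4 complex II genes and for NDUFB2, UQCRB and COX7A2L (x axis), with points for libraries and bars for mean ± SD (n = 3 per group; si-CTRL grey, si-NEK2 orange). SDHA in si-NEK2 sits at 61% with no overlap, SDHB and SDHC sit above 100%, and the si-CTRL range of NDUFB2 reaches down to the si-NEK2 values.

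Complex III had 4 increases (50%) and 1 decrease (12.5%) among 8 tested subunits, with a median log2 fold change of 0.35. The shares over all tested genes were 21.8% and 21.3%. UQCRFS1, the Rieske iron-sulfur protein, had 6449, 8377 and 9563 normalized counts in si-CTRL and 11227, 11621 and 10350.2 in si-NEK2. The groups did not overlap, although si-CTRL spread widely, and UQCRFS1 rose by 0.46 ± 0.13 on the log2 scale (SE, limma adjusted p = 0.0191). The call was lost without si-NEK2 replicate 1 or 2 (limma adjusted p = 0.0637 and 0.0751). Both core proteins rose, UQCRC1 by 0.37 and UQCRC2 by 0.32 on the log2 scale, and these were named after their values were seen.

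The small supernumerary subunits of complex III were split. UQCR10 rose, with 7424, 7894 and 7427 normalized counts in si-CTRL and 10423, 9637 and 9675 in si-NEK2 (log2 fold change 0.39 ± 0.06, SE, limma adjusted p = 0.00147). UQCRB, which lies near the ubiquinone reduction site (8:97238905-97247862, hg19), fell from 9811, 10298 and 11042 to 8218, 8558 and 8208. All its si-NEK2 values were below all si-CTRL values, at a log2 fold change of -0.32 ± 0.07 (SE, limma adjusted p = 0.00475). UQCRQ had 3783, 7087 and 7088 in si-CTRL and 8681, 8181 and 7617 in si-NEK2, and with its low value in si-CTRL replicate 1 it was not called (log2 fold change 0.50, limma adjusted p = 0.0895). Without that library it was called, at 0.20 and a limma adjusted p of 0.0181, and so it was without si-CTRL replicate 2, at 0.65 (limma adjusted p = 0.0487). UQCR11 and the hinge protein UQCRH were not called (log2 fold changes of 0.31 and 0.00, limma adjusted p = 0.17 and 0.971), while UQCRH was called lower after the length correction (-0.21, limma adjusted p = 0.0225). UQCRH has a near-identical copy, UQCRHL, with between 591 and 1216 normalized counts, so that its level is uncertain.

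Complex IV, cytochrome c oxidase, had 6 increases (46.2%) and 1 decrease (7.69%) among 13 tested genes, with a median log2 fold change of 0.39. The shares over all tested genes were 21.8% and 21.3%. NDUFA4, once counted in complex I and now assigned to complex IV, had 7095, 10461 and 10713 normalized counts in si-CTRL and 14354, 15233 and 14548 in si-NEK2. COX6B1, on the side of the enzyme that faces the intermembrane space, had 5642, 7558 and 7806 in si-CTRL and 10706, 10905 and 10054 in si-NEK2. COX5A, a subunit on the matrix side, had 4361, 7401 and 7995 in si-CTRL and 10153, 9907 and 8751 in si-NEK2. In all 3 genes si-CTRL replicate 1 was the lowest library and the groups did not overlap. They rose by 0.67 ± 0.14, 0.61 ± 0.12 and 0.59 ± 0.20 on the log2 scale (SE, limma adjusted p = 0.00538, 0.00332 and 0.04). Without si-CTRL replicate 1 the estimates were 0.47, 0.46 and 0.32, all called. The call of COX5A was lost without si-NEK2 replicate 1, 2 or 3 (limma adjusted p = 0.119, 0.113 and 0.0572), and those of NDUFA4 and COX6B1 passed without any single library.

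COX7A2L, which links complex III and complex IV in supercomplexes (2:42562701-42596150, hg19), fell. It had 5239, 5532 and 5216 normalized counts in si-CTRL and 3873, 4063 and 4065 in si-NEK2, a narrow range in each group. The log2 fold change was -0.41 ± 0.06 (SE, limma adjusted p = 9.33e-04), and it lay between -0.43 and -0.39 without single libraries. Its relative COX7A2, the common isoform that sits in complex IV, had 4179, 6469.9 and 6720.2 in si-CTRL and 6646, 7008 and 6425 in si-NEK2 and was not called (log2 fold change 0.24, limma adjusted p = 0.264). COX6A1 and COX8A were not called either, at -0.04 and 0.18 on the log2 scale (limma adjusted p = 0.648 and 0.453). COX6A1 was called lower under equal total scaling, at -0.17, and after the length correction, at -0.26 (limma adjusted p = 0.0496 and 0.0439).

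The tissue-restricted isoforms of complex IV were absent or rare. COX4I2, COX6A2, COX7A1 and COX7B2 had no read in any of the 6 libraries, where a count of 0 allows up to 3 reads, or between 2.46 and 3.75 normalized counts. COX8C had at most 2.91. Their common partners were abundant, with COX4I1 between 14417 and 19758 normalized counts and COX7B between 8625 and 13891. COX7B rose by 0.39 on the log2 scale (limma adjusted p = 0.0181), a call lost without si-NEK2 replicate 1 or 2 (limma adjusted p = 0.0623 and 0.0602), and COX4I1 was not called (0.23, limma adjusted p = 0.0585) except without si-CTRL replicate 1 (0.14, limma adjusted p = 0.047). The row of COX6B2, a testis isoform, also carries FAM71E2 and is uncertain. It had 73.7, 74.6 and 75.1 normalized counts in si-CTRL and 120.3, 95.8 and 101 in si-NEK2 (log2 fold change 0.49, limma adjusted p = 0.0308). Per kilobase of transcript the si-CTRL level was 44.8 normalized counts for this row and 14772 for COX6B1. The call of COX6B2 was lost in 5 of the 6 fits without 1 library, the exception being that without si-CTRL replicate 1, with a limma adjusted p between 0.0457 and 0.118 over the 6.

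Complex V had the highest share of increases, 12 of 14 tested subunits (85.7%), with none lower and a median log2 fold change of 0.41. The shares over all tested genes were 21.8% higher and 21.3% lower. In F1, the catalytic head, 4 of 5 rose, and in Fo, the membrane rotor and stalk, 8 of 9 rose. The summed normalized counts were 142398, 173833 and 172723 in si-CTRL and 212588, 215634 and 208920 in si-NEK2. The si-NEK2 sums lay close together and above each si-CTRL sum, at 130.3% of the si-CTRL mean and 123% of the mean of si-CTRL replicates 2 and 3. None of the 14 reached a fold change of 1.5.

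Within F1, the alpha subunit gene ATP5A1 had 7283, 10495 and 9932 normalized counts in si-CTRL and 12659, 13365 and 12896 in si-NEK2, and it rose by 0.51 ± 0.12 on the log2 scale (SE, limma adjusted p = 0.0105). The gamma subunit gene ATP5C1, the central shaft, had 9351, 9540.1 and 10181 in si-CTRL and 12836, 13704 and 13692 in si-NEK2. It rose by 0.47 ± 0.06 (SE, limma adjusted p = 5.37e-04), with little spread in si-CTRL. The delta subunit gene ATP5D was the F1 gene not called. Its normalized counts were 869, 1274 and 1606 in si-CTRL and 1605, 1391 and 753 in si-NEK2, so that each group held both high and low libraries (log2 fold change -0.03 ± 0.29, limma adjusted p = 0.952).

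In Fo, ATP5I had the largest estimate, with 2038, 2874 and 3054 normalized counts in si-CTRL and 4035, 4229 and 3488 in si-NEK2 and no overlap. It rose by 0.58 ± 0.15 on the log2 scale (SE, limma adjusted p = 0.0125), and the call was lost without si-NEK2 replicate 2 (limma adjusted p = 0.0564). ATP5H, of the peripheral stalk, was not called (0.28, limma adjusted p = 0.0723), although its groups did not overlap, and it was called without si-CTRL replicate 1 (0.14, limma adjusted p = 0.0362) or 2 (0.38, limma adjusted p = 0.0238). The isoform ATP5L2 had at most 7.61 normalized counts, against at least 7090.3 for its partner ATP5L.

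The proton-carrying subunit c is made from 3 genes, ATP5G1, ATP5G2 and ATP5G3, whose mature products are the same protein. ATP5G2 had 13636, 13387 and 13504 normalized counts in si-CTRL and 18482, 19542 and 18038 in si-NEK2, with the tightest si-CTRL values of the 3 genes. ATP5G3 had 15880.4, 24553 and 24719 in si-CTRL and 29511, 30472 and 27591 in si-NEK2, and ATP5G1 had 6260.4, 7940.1 and 7628 in si-CTRL and 8815, 9018 and 8603 in si-NEK2. All 3 rose, by 0.47, 0.45 and 0.28 on the log2 scale for ATP5G2, ATP5G3 and ATP5G1 (limma adjusted p = 3.75e-04, 0.042 and 0.034). The calls of ATP5G1 and ATP5G3 were lost without si-NEK2 replicate 1, 2 or 3, with limma adjusted p-values between 0.0672 and 0.126. Per kilobase of transcript, ATP5G3 gave 47.9% ± 5.07 of the subunit c signal in si-CTRL and 49% ± 0.56 in si-NEK2 (SD, n = 3). ATP5G2 gave 29.3% ± 4.64 and 30.1% ± 0.345, and ATP5G1 22.8% ± 0.594 and 20.9% ± 0.372. The shares of ATP5G2 and ATP5G3 overlapped between the groups, and those of ATP5G1 did not. In si-CTRL replicate 1 the share was 34.6% for ATP5G2 and 42% for ATP5G3. In si-CTRL replicates 2 and 3 it was 26.4% and 26.8% for ATP5G2 and 50.6% and 51.1% for ATP5G3. The si-NEK2 shares of ATP5G2, between 29.7% and 30.3%, lay above those of si-CTRL replicates 2 and 3. Those of ATP5G3, between 48.4% and 49.5%, lay below them. The group means of these 2 genes thus rest on si-CTRL replicate 1.

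Other genes of the pathway were read from lists of assembly factors, carriers, regulators and neighbouring enzymes. Of 50 assembly factors 19 (38%) were higher and 2 (4%) lower, against 21.8% and 21.3% of all tested genes. The median log2 fold change of these factors was 0.20. The decreases were COA1, a factor of the inner membrane, and NUBPL, which delivers iron-sulfur clusters to complex I. COA1 had 3748, 3217 and 3684 normalized counts in si-CTRL and 1457, 1368 and 1497 in si-NEK2, and NUBPL had 759, 921 and 975 in si-CTRL and 459.9, 430.2 and 453 in si-NEK2. Both were lower in every si-NEK2 library, at log2 fold changes of -1.30 and -0.97 (limma adjusted p = 1.35e-05 and 2.14e-04). TMEM70 and COX14, assembly factors of the inner membrane, rose by 0.72 and 0.76 on the log2 scale (limma adjusted p = 0.0244 and 0.00873), the former with its call lost without si-NEK2 replicate 1 or 2 (limma adjusted p = 0.0678 and 0.0857). The row of COX16, shared with SYNJ2BP and SYNJ2BP-COX16 and therefore uncertain, had an estimate of 0.75. For complex II, the factor SDHAF2, which helps to attach FAD to SDHA, rose by 0.45 (limma adjusted p = 0.00436), while SDHA itself fell. SDHAF4 was not called (-0.29, limma adjusted p = 0.138), nor were PET117 (-0.40), ATPAF2 (-0.21) and BCS1L (0.11). SDHAF4 was called lower without si-CTRL replicate 1 (-0.45, limma adjusted p = 0.00498), and PET117 without si-NEK2 replicate 1 (-0.55, limma adjusted p = 0.0353). UQCC2, for complex III, rose by 0.50 (limma adjusted p = 0.0191), a call lost without si-NEK2 replicate 1 or 2 (limma adjusted p = 0.0563 and 0.0655).

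Of 9 subunits and carriers whose symbols fall outside the rule, 3 (33.3%) were higher and 1 (11.1%) was lower. Over all tested genes the shares were 21.8% and 21.3%. The decrease was that of CYCS, cytochrome c, the carrier between complexes III and IV. It had 18260.1, 28162 and 30215 normalized counts in si-CTRL and 11087, 10802 and 10579.6 in si-NEK2, where all libraries were below the lowest si-CTRL library. CYCS fell by 1.21 on the log2 scale, with an SE of 0.16 (limma adjusted p = 5.31e-04), and its log2 fold change without si-CTRL replicate 1 was -1.43. CYC1, the cytochrome c1 of complex III, was not called (-0.02, limma adjusted p = 0.837). C14orf2, a small ATP synthase subunit, rose by 0.69 (limma adjusted p = 8.36e-04), and ATP5S was not called (0.66, limma adjusted p = 0.0784). The 13 subunits encoded in mitochondrial DNA were not analysed here.

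Of 15 tested regulators of mitochondrial genes 7 (46.7%) were higher and 3 (20%) lower, against 21.8% and 21.3% of all tested genes. The decreases were PPARGC1B and ESRRA, a coactivator and a nuclear receptor that drive mitochondrial genes, and MYC. PPARGC1B had 1094, 999 and 939 normalized counts in si-CTRL and 451, 399 and 427 in si-NEK2, with no overlap (log2 fold change -1.25 ± 0.10, SE, limma adjusted p = 3.37e-05). ESRRA fell by 0.94 (limma adjusted p = 0.0115) and MYC by 0.84 (limma adjusted p = 0.00237) on the log2 scale. TFAM, which packages and transcribes mitochondrial DNA, rose by 0.66 (limma adjusted p = 0.00109), with 11363, 14952 and 14672 normalized counts in si-CTRL and 21391, 21866 and 20933 in si-NEK2. HIF1A, a factor of the response to low oxygen, rose by 0.61 (limma adjusted p = 5.22e-04).

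The TCA cycle, which feeds NADH and succinate to the chain, had 3 increases (21.4%) and 2 decreases (14.3%) among 14 genes. These shares were near or below those of all tested genes, at 21.8% higher and 21.3% lower. The median log2 fold change of the cycle was 0.05. IDH3A, of the NAD-dependent isocitrate dehydrogenase, had 4128, 3849.9 and 4319 normalized counts in si-CTRL and 2389, 2418 and 2494 in si-NEK2. It fell by 0.75 on the log2 scale (limma adjusted p = 7.77e-05), and SUCLG2, of the succinate-CoA ligase, rose by 0.30 (limma adjusted p = 0.00635). Of 7 genes for enzymes that bring electrons to ubiquinone by other routes 2 (28.6%) were higher and 3 (42.9%) lower. The background is the same 21.8% and 21.3%. GPD2, the mitochondrial glycerol phosphate dehydrogenase, had 616, 611 and 598 in si-CTRL and 303, 353 and 299.8 in si-NEK2, all lower. GPD2 fell by 0.93 and DHODH, of pyrimidine synthesis, by 0.62 on the log2 scale (limma adjusted p = 1.71e-04 and 4.47e-04). PRODH, the proline dehydrogenase, was rare, with between 17.1 and 43.7 normalized counts, and was called higher (0.80, limma adjusted p = 0.0441), a call lost in 5 of 6 fits without 1 library, the exception being that without si-CTRL replicate 2 (limma adjusted p between 0.0166 and 0.13 over the 6).

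**Figure D5:**
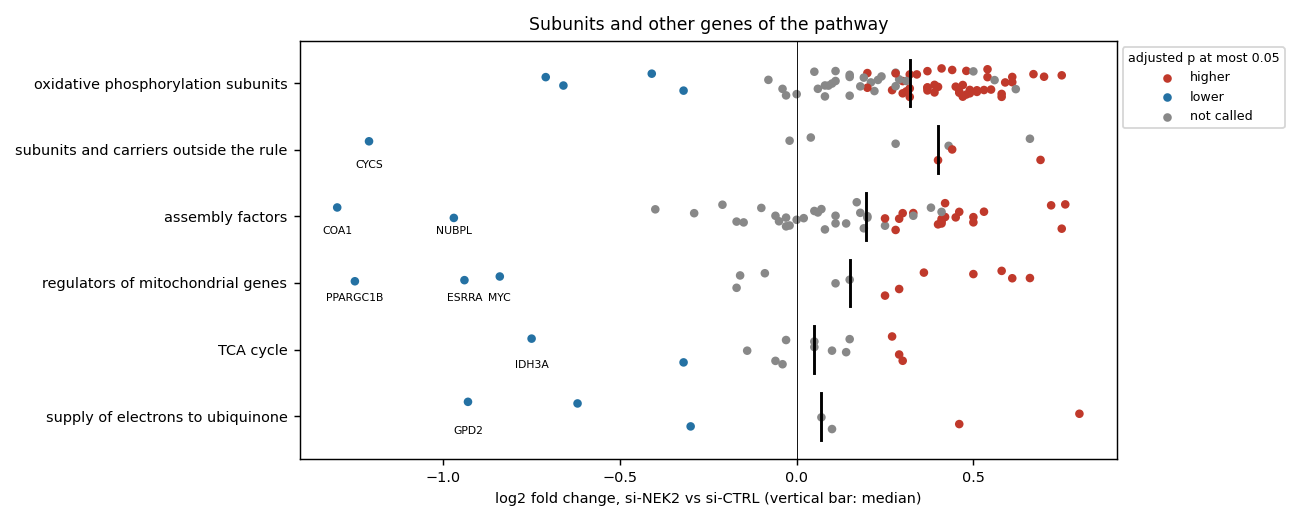
Log2 fold change of si-NEK2 against si-CTRL (x axis) for the 75 subunits and for 5 other lists of the pathway (y axis), with a point per gene coloured by its call, a bar at the median and names beside listed genes at -0.7 or lower. The subunits gather around a median of 0.32, while CYCS, COA1, NUBPL, PPARGC1B, ESRRA, MYC, IDH3A and GPD2 lie far to the left.

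Increases of this kind were also seen in other gene groups, which were chosen for comparison after the data were seen. Of 81 tested cytosolic ribosomal protein genes 62 (76.5%) were higher and 1 lower, with a median log2 fold change of 0.48. Of 45 proteasome subunit genes 25 (55.6%) were higher and 2 lower, with a median of 0.30. Of 76 mitochondrial ribosomal protein genes 28 (36.8%) were higher and 5 lower, with a median of 0.17. Over all tested genes 21.8% were higher and 21.3% lower. By these uncorrected medians the subunits of oxidative phosphorylation lay between the cytosolic and the mitochondrial ribosomal proteins and beside the proteasome. After the length correction, over genes with a length, the median was 0.18 for the subunits and 0.23 for the proteasome. It was then 0.33 for the cytosolic and 0.06 for the mitochondrial ribosomal proteins. Called higher were then 43 of 63 cytosolic ribosomal, 23 of 42 proteasome and 17 of 70 mitochondrial ribosomal genes. Called lower were 2, 3 and 10 of them. The shares among all genes so corrected were 26.2% higher and 25.4% lower, so the increases of the mitochondrial ribosomal genes were then not above the background. No difference between these groups was tested.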

How the data were processed

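MDA-MB-231 RNA was read in 3 si-CTRL and 3 si-NEK2 libraries, grouped by the sample records. The authors deposited 1 signal per gene and library, that is reads divided by the DESeq2 size factor, with FAST DB names and hg19 coordinates. The submitters' processing notes list FastQC, Picard, SAMtools, STAR 2.4.0 and DESeq2. A stranded kit was used, but whether counting used strand is not given in the sources used here, so overlapping and antisense genes may share reads, and 10 subunit rows carry several symbols. Whole reads were recovered for 100.0% of the values (tolerance 0.05 reads), and 1 read was worth between 0.818 and 1.250 normalized counts. Floors cover counting error only.

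Genes with a mean of at least 10 (18717) were tested with limma 3.58.1 (R 4.3.3; lmFit, eBayes with a trend) on log2(value + 1), which understates the change of low genes, with Benjamini-Hochberg adjustment over all of them. The alternatives tried were 3 other scalings, pseudocounts of 0.1 and 5, all genes unfiltered, a minimum mean of 50, eBayes without a trend, the replicate block, single libraries left out, rows with 1 symbol, edgeR 4.0.16 and DESeq2 1.42.0 on recovered reads, and a length correction (loess, span 0.3; 12282 genes). The fits were tested on simulated data, with the same negative binomial spread for all genes. These data held no low library and no trend with transcript length, so the simulation did not cover these features of the real libraries. Transcript lengths are medians over the best-ranked protein-coding transcripts of a GENCODE annotation and are uncertain for single genes.

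Named were NEK2, subunits past the study's thresholds, the 3 highest and 3 lowest of each complex, restricted isoforms with partners, subunit c genes, and the extremes and genes past the thresholds of each list. Subunits, lists and rules were chosen with earlier results of these data known. Counts cover all tested subunits, not all of which are named or drawn here.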

Additional observations from a re-analysis of the deposited data

How the results depend on the processing

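The count of subunits at adjusted p (47) was 28 under equal total scaling, 30 under quantile scaling and 30 with eBayes without a trend. It was between 27 and 53 without single libraries, lowest without si-NEK2 replicate 2 (27) and replicate 1 (30). edgeR called 41 and DESeq2 46. The count past the study's thresholds (8) was 5 with DESeq2, 3 under equal total scaling, 5 under quantile scaling, 5 under upper quartile scaling, 4 after the length correction, which was added after the data were seen, and 48 at a fold change of 1.2. Without single libraries it was between 2 and 17, with 2 without si-CTRL replicate 1, 16 without replicate 2 and 17 without replicate 3, and 5, 4 and 13 without si-NEK2 replicates 1, 2 and 3. The calls in the pathway lists numbered between 29 and 52 without single libraries, lowest without si-NEK2 replicate 2. Under equal total scaling the median over all tested genes was -0.11, and their split was 13.8% higher and 28.1% lower. Relative to the median of all genes, the subunit median was 0.31 as reported and under equal total scaling, and 0.16 under quantile scaling.

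Under equal total scaling, the median log2 fold change was 0.19 over the subunits and 0.17, 0.08, 0.22 and 0.28 for complexes I, II, III and V. Under quantile scaling it was 0.21 over the subunits and 0.19, 0.10, 0.23 and 0.29 for the same complexes. After the length correction it was 0.18 over the subunits and 0.17, 0.13 and 0.28 for complexes I, IV and V. Directions turned in genes that were not called. Without single libraries ATP5D ranged from -0.27 to 0.30, NDUFS4 from -0.14 to 0.15, NDUFS6 from -0.22 to 0.02, SDHD from -0.04 to 0.25 and UQCRH from -0.08 to 0.05. ATP5D was at 0.01, 0.18 and 0.30 without si-CTRL replicate 2, si-CTRL replicate 3 and si-NEK2 replicate 3. NDUFS4 was at -0.08, -0.03 and -0.02 under equal total, quantile and upper quartile scaling, at -0.14 after the length correction, and at -0.14 without si-CTRL replicate 1, where it was called lower (limma adjusted p = 0.0479). UQCRH was at 0.02, 0.05 and 0.01 without si-CTRL replicate 2, si-CTRL replicate 3 and si-NEK2 replicate 1, NDUFS6 at 0.02 without si-NEK2 replicate 3, SDHD at -0.04 without si-CTRL replicate 1, COX8A at -0.06 after the length correction, and BCS1L at -0.02 under equal total scaling. Apart from the values of the settings themselves, the cause was not tested. Of 1153 values of 61 single genes under the alternatives, 1016 kept direction and call, 104 lost the call and 18 gained it. Those that gained it were values of ATP5H, COX4I1, COX6A1, UQCRH, UQCRQ, ATP5S, SDHAF4 and PET117. SDHAF4 and PET117 did so under equal total scaling and after the length correction, and ATP5S with DESeq2 and without si-CTRL replicate 1, 2 or 3.

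With the replicate number as a block, 39 subunits were called (35 higher) and the subunit median was 0.32. The sample records used here do not say whether the numbers pair the libraries. The correlations of deviations between libraries of the same number were -0.091, 0.047 and -0.147. Those between libraries of other numbers lay between -0.119 and 0.180. With 3 libraries per group these values cannot decide whether the libraries are paired.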
